A study of Homo sapiens with 9 samples.

Results

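The transferrin receptor gene TFRC and 4 genes tied to it through cellular iron, SLC11A2, ACO1, CDC42BPA and HMOX1, were followed in LAN-5 cells, an established human neuroblastoma line. Members were every probe set whose only gene symbol was one of these 5. That gave 5 probe sets, 1 per gene, of 8793 on the array. RNA from untreated cultures, from cultures with 0.5 nM S100B and from cultures with 5 µM S100B was hybridised to 9 Affymetrix 1-colour arrays, 3 per group, which the series design calls biological replicates. S100B is a calcium-binding protein that astrocytes secrete. All groups are the same line, so they carry the background of 1 tumour. The sources used here give neither the duration of treatment nor a vehicle. Values are the authors' log2 expression values from GCRMA, so 1 unit is a doubling. An array of bulk RNA cannot tell a change in the number of expressing cells from a change in RNA per cell.

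TFRC was chosen by its values on these arrays: of 5830 probe sets tested it was the 1 that was higher at 5 µM than at 0.5 nM past limma's adjusted p threshold of 0.05. The other members were chosen for their tie to it, with the same arrays known. The members' values are therefore given as a description, with standard errors. Adjusted p-values printed for TFRC describe the call it was chosen by and how far that call depends on single arrays, and they are no independent test. Tests are given for the other iron and haem genes. Their lists were also chosen with earlier results of these data known.

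Cells import iron mostly as transferrin, which the receptor TFRC carries into endosomes, where SLC11A2 (DMT1) moves the freed iron into the cytosol. When iron is scarce, iron regulatory proteins, one of which is ACO1, bind hairpins called iron-responsive elements in mRNAs. Hairpins in the 3' untranslated region, as in TFRC, 1 form of SLC11A2 and CDC42BPA, protect the mRNA from decay, whereas a hairpin in the 5' untranslated region, as in the ferritins, blocks translation. HMOX1, haem oxygenase 1, breaks down haem and releases its iron. Neurons rely on TFRC for iron, and TFRC is also abundant in dividing cells and is a known target of hypoxia-inducible factor and of MYC proteins.

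The RefSeq window around the start of TFRC is shown because TFRC is the member that stood apart by dose. It covers chr3:196082041-196082340 of GRCh38.p14 on the minus strand, 250 bases before and 50 bases from the annotated start, written in the direction of transcription. Capitals mark ACGTG, the core of the hypoxia-response element, whose first base lies at -88, and TATAAA, the TATA box, at -33.
TFRC: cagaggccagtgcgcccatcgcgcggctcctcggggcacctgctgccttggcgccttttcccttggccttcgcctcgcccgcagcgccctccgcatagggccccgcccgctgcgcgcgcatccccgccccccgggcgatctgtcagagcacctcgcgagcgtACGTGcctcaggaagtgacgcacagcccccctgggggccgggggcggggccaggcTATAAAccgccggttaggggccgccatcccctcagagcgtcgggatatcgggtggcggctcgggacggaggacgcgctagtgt
Searched on both strands, ACGTG stood in 21.4% and TATAAA in 11.5% of the 35116 RefSeq windows of 300 bases. The E-box CACGTG, which contains ACGTG, was in 7.26% of windows and the antioxidant response core TGACNNNGC in 13.4%, and neither was in the TFRC window. Of the 5 members, 4 had windows in the table, 7 in all, and ACGTG was found in 1 of the 7, that of TFRC. HMOX1 had no entry. The iron-responsive elements themselves lie outside these windows.

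TFRC was higher at 5 µM than in both other groups, and at 0.5 nM it was near its untreated level. Untreated arrays had log2 values of 10.54, 10.54 and 10.55, arrays at 0.5 nM had 10.66, 10.42 and 10.50, and arrays at 5 µM had 10.85, 11.03 and 11.16. All 3 arrays at 5 µM lay above all 6 others, whereas the 0.5 nM arrays lay on both sides of the untreated ones. The group mean was 10.54 ± 0.0094 in untreated cells, 10.52 ± 0.12 at 0.5 nM and 11.01 ± 0.15 at 5 µM (SD, n = 3 each). The log2 difference was 0.47 ± 0.08 (SE) between 5 µM and untreated, or 138.5% of the untreated level, and 0.49 ± 0.08 (SE) between 5 µM and 0.5 nM, or 140.3% of the level at 0.5 nM. Between 0.5 nM and untreated it was -0.02 ± 0.08 (SE).

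Ranked by size, the difference in TFRC between 5 µM and 0.5 nM was the largest rise of all 5830 probe sets. Against untreated it ranked 2 among rises, after LAMB1, a laminin chain, at 0.53 ± 0.16 (SE), which did not pass limma's test (adjusted p = 0.478) and is named after its value was seen. Between the doses 1 of the 5 members was called, TFRC, a count that the choice of TFRC fixes. It was the 1 probe set called higher, 0.0172% of all, and 0.257% were called in either direction. At 5 µM against untreated 0 of 5 members were called, against 0.292% of all probe sets, every one of them lower, and 6.84% had an unadjusted p under 0.05. Between the doses TFRC and MVD, an enzyme of sterol synthesis, were the last inside the threshold, both at limma's adjusted p = 0.0483. The next outside it had 0.0643, and then came ERG28 at 0.0655 and FLRT3 at 0.0706.

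Arrays at 5 µM did not overlap with those at 0.5 nM in 1 of the 5 members, TFRC, which was higher. TFRC was chosen by its call in this comparison, so this count is no independent result. Of all probe sets, 2.35% were higher in that way and 4.63% lower, and 4.65% had an unadjusted p under 0.05. Arrays at 0.5 nM overlapped with untreated ones in all 5 members, where 1.97% of all probe sets were higher without overlap and 5.01% lower.

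The call of TFRC between the doses was lost in 8 of the 9 fits that left out 1 array, with limma's adjusted p from 0.0362 to 0.274, and passed only without 5 µM replicate 1. The difference itself stayed between 0.42 and 0.57 log2 in those 9 fits. Untreated arrays enter this call only through the estimate of spread that all groups share, and TFRC varied least among them (SD 0.0094). Leaving out any 1 of them kept the difference at 0.49 and gave limma's adjusted p of 0.108 to 0.12. With only the 2 dose groups fitted, limma's adjusted p was 0.294. Against untreated, TFRC passed without 0.5 nM replicate 1 (limma's adjusted p = 0.0403) or 5 µM replicate 1 (0.048), and the difference was 0.40 to 0.55. The array with the highest TFRC value, 5 µM replicate 3, also had the largest 3' minus 5' signal of the GAPDH control, a measure of RNA integrity, 0.40 log2, where the remaining arrays had 0.20 to 0.37. Its part in the result was not tested. Without that array TFRC was 0.40 higher at 5 µM than in untreated cells and 0.42 higher than at 0.5 nM.

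**Figure D1:**
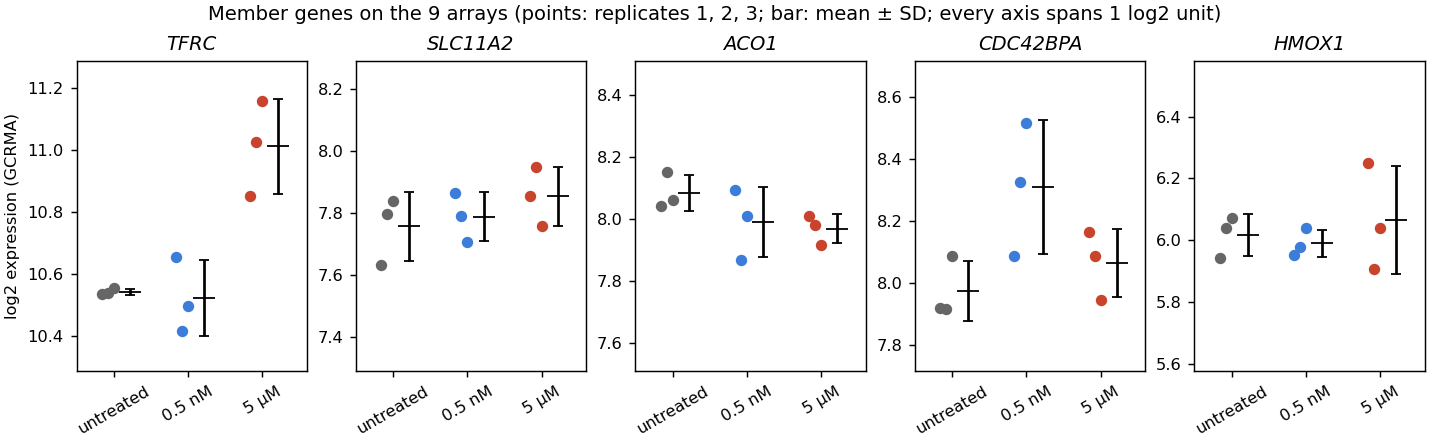
Log2 expression (y axis, GCRMA values, each axis spanning 1 log2 unit) of the 5 members on the 9 arrays, by dose (x axis). Points are replicates 1, 2 and 3 from left to right and bars are mean ± SD of a group. TFRC at 5 µM, from 10.85 to 11.16, lies above all other arrays, and CDC42BPA is highest on 2 of the 3 arrays at 0.5 nM.

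SLC11A2, the endosomal iron transporter, showed no separation by dose. Untreated arrays had 7.63, 7.80 and 7.84, arrays at 0.5 nM 7.86, 7.79 and 7.71, and arrays at 5 µM 7.85, 7.95 and 7.76. The 3 groups overlapped. The log2 difference was 0.10 ± 0.07 (SE) between 5 µM and untreated, 0.03 ± 0.07 between 0.5 nM and untreated and 0.07 ± 0.07 between the doses. The suffix of the probe set marks one that may detect several transcripts, so the form of SLC11A2 with an iron-responsive element and the form without it were not told apart.

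ACO1, which is an aconitase with an iron-sulfur cluster and an RNA-binding iron regulatory protein without it, lay slightly lower in treated cells. Untreated arrays had 8.04, 8.15 and 8.06, arrays at 0.5 nM 8.09, 7.87 and 8.01, and arrays at 5 µM 8.01, 7.98 and 7.92. Arrays at 5 µM lay below all untreated arrays, by 0.03 log2 at the closest, and 0.5 nM arrays overlapped with both other groups. The log2 difference was -0.12 ± 0.07 (SE) between 5 µM and untreated, a level 92.3% of untreated, -0.10 ± 0.07 between 0.5 nM and untreated and -0.02 ± 0.07 between the doses. Against untreated, arrays at 5 µM did not overlap in 2 of the 5 members, higher in TFRC and lower in ACO1, where 2.86% of all probe sets were higher in that way and 9.47% lower. TFRC was chosen by its values at 5 µM, so its place in this count is no independent result.

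CDC42BPA, a kinase that acts downstream of CDC42 on the actin and myosin cytoskeleton and whose mRNA has an iron-responsive element, had its highest mean at 0.5 nM. Untreated arrays had 7.92, 7.92 and 8.09, arrays at 0.5 nM 8.09, 8.33 and 8.52, and arrays at 5 µM 8.16, 8.09 and 7.95. Replicates 2 and 3 at 0.5 nM lay above every other array, while replicate 1 at 0.5 nM equalled untreated replicate 3 and 5 µM replicate 2. The mean was 7.97 ± 0.10 in untreated cells, 8.31 ± 0.22 at 0.5 nM and 8.06 ± 0.11 at 5 µM (SD, n = 3 each).

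The log2 difference of CDC42BPA was 0.34 ± 0.10 (SE) between 0.5 nM and untreated, or 126.2% of the untreated level, and ranked 5 among the rises of that comparison. It was 0.09 ± 0.10 between 5 µM and untreated and -0.24 ± 0.10 between 5 µM and 0.5 nM. At 0.5 nM against untreated limma called 0 of 5830 probe sets, and 3.29% had an unadjusted p under 0.05. The SD of CDC42BPA at 0.5 nM, 0.22 log2, was the widest of any member in any group. TFRC and CDC42BPA therefore had their highest means at different doses, and the difference between their patterns was not tested.

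HMOX1, haem oxygenase 1, lay near the low end of the tested range, with a mean of 6.03 over all arrays against an intensity limit of 5.95. Untreated arrays had 5.94, 6.04 and 6.07, arrays at 0.5 nM 5.95, 5.98 and 6.04, and arrays at 5 µM 6.25, 5.91 and 6.04. The lowest and the highest value of all 9 arrays both came from 5 µM. The log2 difference was 0.05 ± 0.08 (SE) between 5 µM and untreated, -0.03 ± 0.08 between 0.5 nM and untreated and 0.08 ± 0.08 between the doses.

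**Figure D2:**
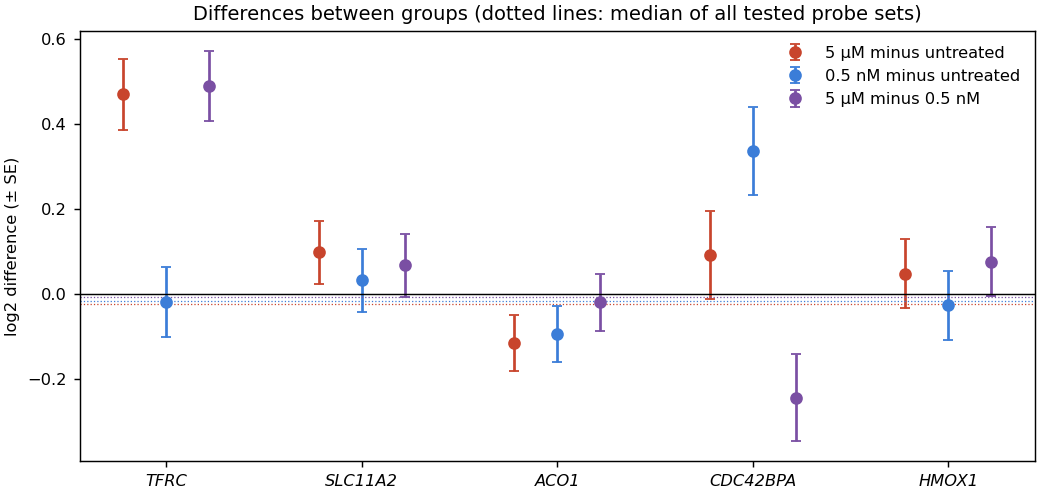
Log2 difference between group means (y axis) of the 5 members (x axis) in 3 comparisons, with standard errors of the limma fit as bars and the median of all tested probe sets as dotted lines. TFRC has 0.47 and 0.49 in the comparisons with 5 µM and -0.02 at 0.5 nM, and CDC42BPA 0.34 at 0.5 nM against untreated.

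The wider iron and haem system was described with 9 lists holding 123 genes. A probe set with a single symbol existed for 69, and 57 passed the intensity limit. Of the 52 that are not members, limma called 0 at 5 µM against untreated, and 2 of them (3.85%) had an unadjusted p under 0.05, where 6.84% of all probe sets did. Those 2 were VEGFA and ADM. The median log2 difference of the 52 was -0.02, against -0.02 for all tested probe sets, with a range of -0.20 to 0.35. At 0.5 nM against untreated limma called 0 of the 52, and 0 had an unadjusted p under 0.05, with a median of -0.03 against -0.02 over all. Between the doses limma also called 0 of the 52, 2 had an unadjusted p under 0.05, again VEGFA and ADM, and the median was 0.02 against -0.0089 over all. The ferritins FTH1 and FTL, the exporter SLC40A1, the second iron regulatory protein IREB2 and its regulator FBXL5 had no probe set with 1 symbol in the annotation and were not analysed here.

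Among genes of iron uptake and the transferrin cycle, 8 were tested and 6 of them are not members, with differences of -0.06 to 0.05 at 5 µM against untreated. TFR2, the second transferrin receptor, was at -0.05 ± 0.07 (SE), and SNX3, which recycles the transferrin receptor, at 0.05 ± 0.05, both named after their values were seen. Of these 6, limma called 0 in any comparison (smallest adjusted p = 0.878). In iron storage and export the tested genes were the iron chaperones PCBP1 at 0.01 ± 0.08 and PCBP2 at -0.03 ± 0.09 (limma's adjusted p = 0.993 and 0.98). In iron sensing and the hepcidin axis 4 were tested, and besides ACO1 the ligand BMP6, which induces hepcidin in liver, was at 0.06 ± 0.08 (adjusted p = 0.938).

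Among other mRNAs with a described iron-responsive element, 5 were tested and 0 were called by limma in any comparison. The complex I subunit NDUFS1, reported as such an mRNA with less certainty than TFRC, was at -0.12 ± 0.06 (SE) at 5 µM against untreated (limma's adjusted p = 0.74). EPAS1, the hypoxia-inducible factor 2 alpha subunit, whose 5' untranslated region holds the element, was at -0.20 ± 0.10 (adjusted p = 0.744). Without CDC42BPA the list median was -0.04 at 5 µM against untreated, where all probe sets had -0.02. Between the doses it was -0.083, where all had -0.0089, and the smallest adjusted p was 0.994.

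Genes of haem and of iron-sulfur clusters stayed within a narrow range. In haem synthesis 0 of 8 were called by limma in any comparison, with differences from -0.08 to 0.07 at 5 µM against untreated, among them PPOX, which makes protoporphyrin, at 0.07 ± 0.08 and FECH, which inserts the iron, at -0.07 ± 0.09 (SE). In haem breakdown and transport 0 of 5 were called, and of the biliverdin reductases BLVRB was at -0.08 ± 0.08 and BLVRA at 0.07 ± 0.12 at 5 µM against untreated (adjusted p = 0.901 and 0.942). In iron-sulfur cluster assembly 0 of 8 were called, with the cysteine desulfurase NFS1 at -0.08 ± 0.06 and ISCA1, an assembly factor, at 0.09 ± 0.08 at 5 µM. Among the 9 tested genes of the list for the oxidative stress factor NRF2, HMOX1 included, 0 were called, with GCLC, which makes glutathione's precursor, at 0.11 ± 0.05 (adjusted p = 0.74) and NFE2L2, NRF2 itself, at -0.12 ± 0.14 (adjusted p = 0.916).

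Of 10 tested genes reported to rise when iron is chelated, several of which are also hypoxia-inducible, TFRC is 1, and limma called 0 of the other 9 in any comparison (smallest adjusted p = 0.342). VEGFA, an angiogenic growth factor, was at 0.35 ± 0.10 (SE) at 5 µM against untreated (limma's adjusted p = 0.407), and ADM, the peptide hormone adrenomedullin, at 0.24 ± 0.07 (adjusted p = 0.4). In limma, 3 of the 10 had an unadjusted p under 0.05 at 5 µM against untreated, and 3 between the doses. In both they were VEGFA, ADM and TFRC, which was chosen by its values. Over all probe sets the shares were 6.84% and 4.65%. The list was chosen with earlier results of these data known, so these counts are no independent test. NDRG1, another gene of the list, was at -0.16 ± 0.09 (adjusted p = 0.778) and the mitophagy receptor BNIP3 at 0.05 ± 0.13 (adjusted p = 0.974), both picked after seeing their values. The list median without TFRC was 0.05 at 5 µM against untreated and -0.05 at 0.5 nM against untreated, where all probe sets had -0.02 and -0.02.

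**Figure D3:**
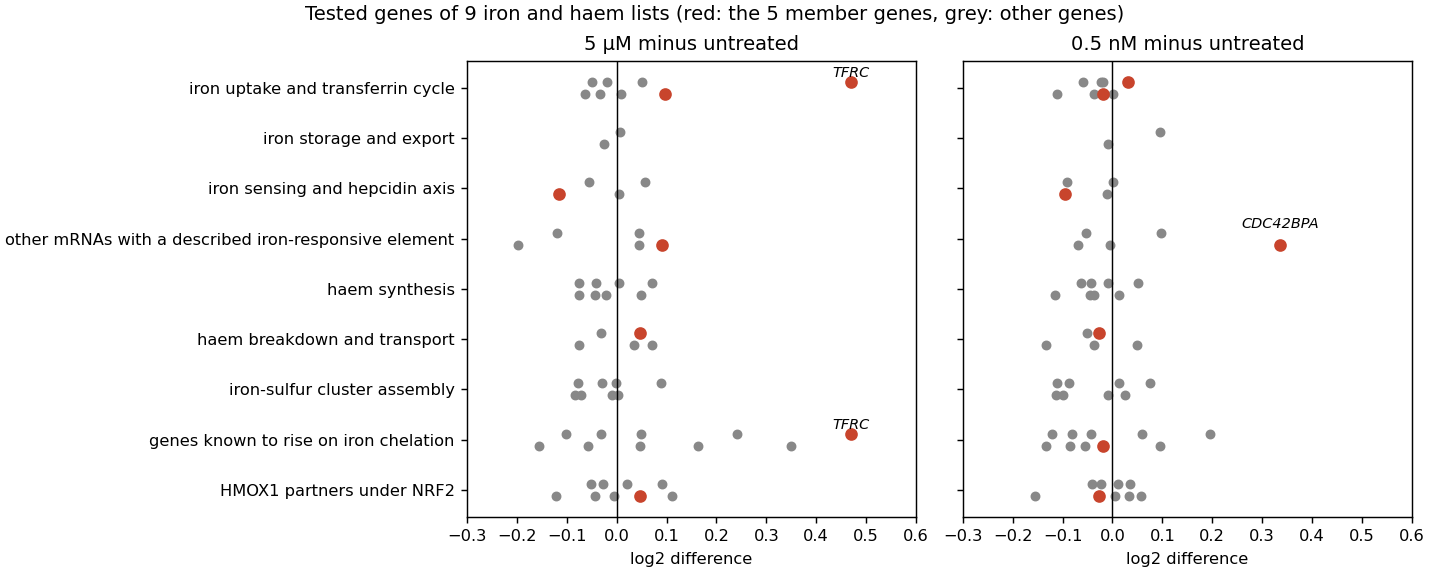
Log2 difference (x axis) of each tested gene in 9 iron and haem lists (rows), at 5 µM against untreated on the left and 0.5 nM against untreated on the right. Red points are the 5 members and grey points other genes, a gene can stand in more than 1 row, and TFRC on the left at 0.47 and CDC42BPA on the right at 0.34 lie farthest from 0.

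Profiles over the 9 arrays were compared with that of TFRC by the root mean square difference of log2 values, each gene centred on its own mean. TFRC itself departed from its own mean by 0.24 in this measure, which is its distance from a flat profile. The 5225 other probe sets with 1 symbol had a median distance of 0.26 from the TFRC profile. The 5 nearest were VEGFA at 0.10, ALDH6A1, a mitochondrial enzyme of valine breakdown, at 0.12, SOS2, an activator of RAS, at 0.13, RGS7, a regulator of G protein signalling, at 0.14 and ADM at 0.14. Of these, ADM separated 5 µM from all other arrays as TFRC did, with 6.87 to 7.05 at 5 µM against 6.59 to 6.77 elsewhere. VEGFA did not, with 6.17 to 6.51 at 5 µM against 5.88 to 6.21 elsewhere. The genes were ranked on the arrays that chose TFRC, so their likeness is a description over 9 arrays that share 3 groups.

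The 5 nearest to the TFRC profile with its sign turned were the isoprenoid enzyme IDI1 at 0.12, the chromatin-bound RAN activator RCC1 at 0.13, the activin subunit INHBA at 0.13, the mitotic kinase PLK1 at 0.13 and the hexose transporter SLC2A6 at 0.14. IDI1 had 9.52 to 9.78 at 5 µM against 10.15 to 10.35 on the other arrays, PLK1 8.29 to 8.32 against 8.51 to 8.66 and SLC2A6 6.16 to 6.25 against 6.41 to 6.61. RCC1 and INHBA overlapped, with 8.10 to 8.45 against 8.39 to 8.70 and 5.93 to 6.28 against 6.21 to 6.39. Of the other members, SLC11A2 lay at 0.22 from the TFRC profile, in place 545 of the 5225 compared. HMOX1 lay at 0.25, ACO1 at 0.28 and CDC42BPA at 0.36, each farther from TFRC than a flat profile would be. Of the genes nearest to TFRC, RGS7 had ACGTG in 2 of its 4 RefSeq windows, and it was not found in the windows of ALDH6A1, SOS2 and ADM. VEGFA had no entry.

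**Figure D4:**
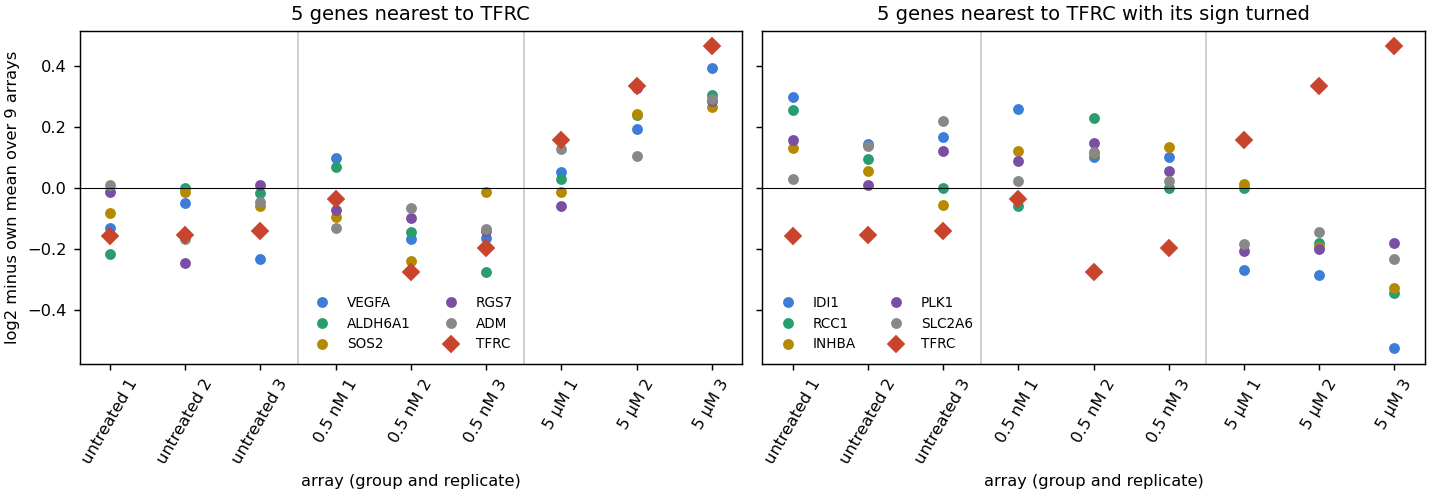
Log2 value minus the gene's own mean (y axis) on each array (x axis) for TFRC (red diamonds) with the 5 genes nearest to its profile on the left, and with the 5 nearest to its profile turned in sign on the right. At 5 µM TFRC lies 0.16 to 0.47 above its mean and IDI1 0.27 to 0.52 below its own.

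Marker lists of other cell types and control probe sets were read on the same arrays. List means take in every marker with a probe set, those below the intensity limit included. Of 15 noradrenergic neuroblast markers with a probe set, 14 lay above the intensity limit, with list means of 9.24 to 9.46 in untreated cells, 9.42 to 9.47 at 0.5 nM and 9.41 to 9.50 at 5 µM. Above the limit lay 2 of 9 leukocyte, 4 of 8 glial and 4 of 6 erythroid markers. Fibroblast markers, 5 of 9 above the limit, had list means of 7.09 to 7.14 in untreated cells, 7.09 to 7.12 at 0.5 nM and 6.97 to 7.07 at 5 µM, and erythroid markers 7.03 to 7.16 in untreated cells, 6.98 to 7.01 at 0.5 nM and 6.94 to 7.03 at 5 µM. At 5 µM against untreated, 12 of 14 noradrenergic, 0 of 5 fibroblast and 0 of 4 erythroid markers had a difference above 0, as did 38.1% of all probe sets. At 0.5 nM against untreated these counts were 12 of 14, 3 of 5 and 0 of 4, with 40.9% of all probe sets. Limma called 0 of these markers in either comparison. The lowest noradrenergic list mean, 9.24, and the highest erythroid one, 7.16, both came from untreated replicate 2. The part of these lists in the results was not tested. The mean of 9 spike-in controls was 8.40 on untreated replicate 1 against 8.59 to 9.07 on the others, and without that array TFRC was 0.47 higher at 5 µM than in untreated cells, as with it.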

How the data were processed

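The authors deposited 1 table of log2 expression values, 1 column per array, made with GCRMA per the submitters' processing notes, which give no version. GCRMA corrects background with probe sequence, which can compress differences of dim probe sets. The log2 scale was inferred from the range of the deposited values, 4.37 to 14.5. No genome build is given in the sources used here.

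Of 8793 probe sets, 47 manufacturer's controls and the dimmest 2916 by mean over all arrays (at or below 5.95) were left out. For the remaining 5830, limma 3.58.1 (R 4.3.3) estimated 3 group means from all 9 arrays, with Benjamini-Hochberg adjustment per comparison. Symbols were updated by Entrez identifier through RefSeq. All 5 members passed the limit. A gene with several probe sets was taken at its brightest. The members and lists were chosen with earlier results of these data known. Of each list, genes past the threshold are named, otherwise the 2 tested genes with the smallest p at 5 µM against untreated. An exact permutation test of 3 against 3 cannot go below 0.1. Precision is limited by the number of arrays. The median half-width of a 95% interval was 0.156 log2. The procedure was also run on simulated arrays with independent noise, and no result given here rests on that run. Alternatives were other scalings, filters, variance models, group subsets, a replicate block and left-out arrays.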

Additional observations from a re-analysis of the deposited data

How the results depend on the processing

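The log2 difference of TFRC between 5 µM and the other groups kept its direction in every setting tried, at 0.40 to 0.55 against untreated and 0.40 to 0.64 against 0.5 nM with arrays left out. Its call, the 1 among the iron and haem genes, depended on the setting, and the cause was not tested. Against untreated, 1 gene, TFRC, passed after quantile normalization, median centring, a stricter filter on dim probe sets and a trended robust variance model. In that comparison 0 passed in a fit of only the 2 groups, with a replicate block, without a filter and with control probe sets kept. With arrays left out, 0 to 1 passed. Between the doses TFRC passed after quantile normalization, with the stricter filter and with the trended robust model. There, 0 passed after median centring, in a fit of only the 2 groups, without a filter and with control probe sets kept, and 0 to 1 with arrays left out.

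With the replicate number as a block, 0 iron and haem genes passed between the doses (adjusted p = 0.0615 for TFRC). Over all probe sets 15 passed with this block in each comparison that involves 5 µM. The numbers were not taken to pair the arrays: deviations of same-numbered arrays correlated above 0.1 in 4 of 9 pairs, and 3 of 9 arrays correlated best with their own number in both other groups. Every pair of replicate 3 was above 0.1. Untreated correlated with 0.5 nM at 0.33 and with 5 µM at 0.30, and the doses with each other at 0.30. Differently numbered arrays of different groups had correlations from -0.37 to 0.35, a range that takes in the values of replicate 3. The main fit did not model anything that replicate 3 arrays may share, and the part of this in the results was not tested.

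The count of all called probe sets was 7 at 5 µM against untreated and 4 between the doses when only 2 groups were fitted, and 0 to 17 and 0 to 14 with arrays left out. With arrays left out, HMOX1 ranged from -0.083 to 0.14 at 5 µM against untreated and from -0.036 to 0.15 between the doses, SLC11A2 from -0.070 to 0.11 and ACO1 from -0.17 to -0.0011 at 0.5 nM against untreated, and CDC42BPA from -0.41 to -0.081 between the doses. ACO1 ranged from -0.088 to 0.030 between the doses, TFRC from -0.089 to 0.034 at 0.5 nM against untreated, and at 5 µM against untreated CDC42BPA from 0.015 to 0.21 and SLC11A2 from 0.035 to 0.19. Settings that leave out 1 replicate number in every group are included in these ranges.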

Other observations

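Of the 5830 tested probe sets, 53.2% had exactly equal deposited values on 2 or more of the 9 arrays, and 22.6% on 3 or more. Among the members, CDC42BPA had the value 8.09 on 3 arrays, 1 from each group, and ACO1 and HMOX1 each had 1 value shared by 2 arrays, while TFRC and SLC11A2 had 9 distinct values each. The probe set with the largest rise at 0.5 nM against untreated was that of the neurofilament gene NEFM at 0.44 ± 0.22 (SE), followed among genes with 1 symbol by BPTF at 0.40 ± 0.23, NEFH at 0.40 ± 0.22 and CDC42BPA at 0.34 ± 0.10. NEFM, BPTF and NEFH did not pass limma's test (adjusted p = 1) and are named after their values were seen.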
